A study of Mus musculus with 27 samples.

Results

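Collagens are the triple-helical proteins of the extracellular matrix. Fibrillar collagens form the cable-like fibres of connective tissue, network-forming collagens line basement membranes, and fibril-associated, beaded filament and transmembrane collagens link these structures to each other and to cells. In the embryonic heart they are made by epicardial and cushion mesenchyme cells, by endocardium and, for the basement membrane chains, by many cell types. The collagen genes described here are all genes whose single platform symbol has the form Col, digits, a, digits, with the probe set of the highest mean over all arrays taken for each gene. This gave 44 of the 19935 genes measured, from 46 probe sets, since Col6a5 and Col6a6 had a second one.

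The series profiled whole mouse hearts at stage E11.5, from a C57Bl/6 and BLKSW mixed background, on 27 arrays in 6 genotype groups. These were wild type (n = 6), Brg1+/- (n = 6), Tbx5+/- (n = 5), Nkx2-5+/- (n = 4), Tbx5+/- Brg1+/- (n = 3) and Nkx2-5+/- Brg1+/- (n = 3). Smarca4 is the gene of Brg1, the motor subunit of the BAF remodeller of chromatin, and both Nkx2-5 and Tbx5 are transcription factors of heart muscle. The crosses set loss of 1 Smarca4 copy beside loss of 1 copy of each factor, alone and combined. The labels give no construct for the deleted alleles and do not say whether the arrays came from separate or pooled embryos, so p-values measure only the spread between arrays.

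The targeted genes were read first as a check of the labels. Smarca4 lay at log2 9.95 to 10.16 in the wild-type arrays and at 9.16 to 9.45 in the Brg1+/- arrays. The array labelled Nkx2-5+/- replicate 3 had Smarca4 at 9.57 and Nkx2-5 at 9.40, whereas the other Nkx2-5+/- arrays had Smarca4 at 9.89 to 10.08 and Nkx2-5 at 8.48 to 8.63. The array labelled Tbx5+/- Brg1+/- replicate 3 had Smarca4 at 10.01, within the wild-type range, and its group mates were at 9.51 and 9.64. Calls of collagen genes, and many other results, are also given without both arrays, a choice made after the signals were seen. Tbx5 was not lower in Tbx5+/- hearts, at 8.51 to 8.90 against 8.40 to 8.96 in wild type, so this probe set gave no check of that label. Nkx2-5 was 9.03, 9.24 and 8.85 in the Nkx2-5+/- Brg1+/- arrays and ran from 9.17 to 9.96 in wild type. Replicate 2 of that compound group thus lay within the wild-type range for Nkx2-5, and it was not among the 2 arrays left out together. Cardiomyocyte genes, which define heart muscle, had a mean of 12.14 over 15 genes in wild type. The mean of 14 erythroid genes ran from 8.40 to 10.12 in wild type, from 8.96 to 10.95 in Brg1+/-, from 9.01 to 11.20 in Nkx2-5+/- and from 8.11 to 10.02 in Nkx2-5+/- Brg1+/- arrays. Values are RMA log2 signals, in which 1 unit is a doubling, and signals of different genes are not compared because their probes differ.

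Promoter sequences are shown for Col1a2 and Col3a1, which had the smallest p of the collagen genes in the Nkx2-5 by Brg1 interaction, and for the neighbours Col6a1 and Col6a2, whose transcripts varied together. Each is the 250 bases before the transcription start, 5′ to 3′ on the strand of the gene, from RefSeq on build GRCm38.p6, where 35 of the 44 collagen genes had an entry. The windows are chr6:4505368-4505617 and chr1:45311288-45311537 on the forward strand, and chr10:76726045-76726294 and chr10:76623631-76623880 on the reverse strand. Capitals mark a CCAAT box (the letters CCAAT, read on both strands), a GC box (the letters GGGCGG, read on both strands) or a TATA box (the letters TATAAA, read on both strands), and no marked match overlaps another.
Col1a2: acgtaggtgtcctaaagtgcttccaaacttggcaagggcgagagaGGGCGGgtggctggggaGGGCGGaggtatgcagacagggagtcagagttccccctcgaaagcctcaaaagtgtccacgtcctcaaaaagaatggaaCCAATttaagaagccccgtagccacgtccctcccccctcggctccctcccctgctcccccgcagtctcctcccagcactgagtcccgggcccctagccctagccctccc
Col3a1: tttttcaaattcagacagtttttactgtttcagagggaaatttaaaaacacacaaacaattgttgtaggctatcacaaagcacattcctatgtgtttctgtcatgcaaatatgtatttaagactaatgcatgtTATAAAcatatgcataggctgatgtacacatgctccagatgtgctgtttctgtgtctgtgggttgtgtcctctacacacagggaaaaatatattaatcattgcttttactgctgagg
Col6a1: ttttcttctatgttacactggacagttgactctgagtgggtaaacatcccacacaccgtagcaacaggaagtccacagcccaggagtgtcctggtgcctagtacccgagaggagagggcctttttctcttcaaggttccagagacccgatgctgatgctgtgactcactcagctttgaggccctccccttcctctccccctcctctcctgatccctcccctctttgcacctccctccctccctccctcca
Col6a2: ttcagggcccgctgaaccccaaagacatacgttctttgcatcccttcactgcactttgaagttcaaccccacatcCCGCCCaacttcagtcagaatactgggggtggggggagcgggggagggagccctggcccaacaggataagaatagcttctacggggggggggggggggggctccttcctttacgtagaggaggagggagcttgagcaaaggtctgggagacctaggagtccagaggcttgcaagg
The Col1a2 window holds GC boxes starting 205 and 188 bases before the start and a CCAAT box at 109. Col3a1 has a TATAAA match at 117, Col6a2 a GC box on the opposite strand at 175, and none of these letters is in the Col6a1 window. Over the 35 collagen promoters a GC box was present in 60% and in 32.9% of the 27025 promoters in the table. The CCAAT box was present in 34.3% and 34.5%, and the TATA box in 14.3% and 13% of the same sets. The shares used the first listed window of each symbol, and the sequences shown used the outermost start of the gene. The 27025 promoters were not limited to the genes measured here, so the sets are not matched. A match describes letters only.

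No collagen gene passed the test in any of the 9 comparisons (limma, Benjamini-Hochberg adjusted p under 0.05 over all genes). The comparisons are each group against wild type, each compound group against its single transcription factor group, and the interaction of each factor with Brg1, which takes the Brg1 difference among factor-heterozygous hearts and subtracts the Brg1 difference among hearts with both factor copies. The background of called genes was 0.01% for Brg1+/-, 0% for Tbx5+/-, 7.89% for Nkx2-5+/-, 0% for Tbx5+/- Brg1+/- and 0.0351% for Nkx2-5+/- Brg1+/-, each against wild type. It was 0% for Tbx5+/- Brg1+/- against Tbx5+/-, 0.0401% for Nkx2-5+/- Brg1+/- against Nkx2-5+/-, 0% for the Tbx5 by Brg1 interaction and 4.95% for the Nkx2-5 by Brg1 interaction. In the same order, collagen genes with an unadjusted p under 0.05 numbered 2, 1, 3, 2, 2, 1, 4, 0 and 8 of 44. The share of all genes was 9.71%, 3.95%, 22.3%, 4.38%, 7.39%, 2.48%, 15.4%, 3.04% and 20.2%. For Nkx2-5+/- against wild type, the comparison with the highest share, the collagen genes were at 6.82%. A p that misses the threshold does not show equal levels, and the median 95% interval of a collagen gene reached 0.22 to 0.37 log2 units to either side of its difference. In whole hearts, fewer collagen-making cells and less RNA per cell cannot be told apart.

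**Figure D1:**
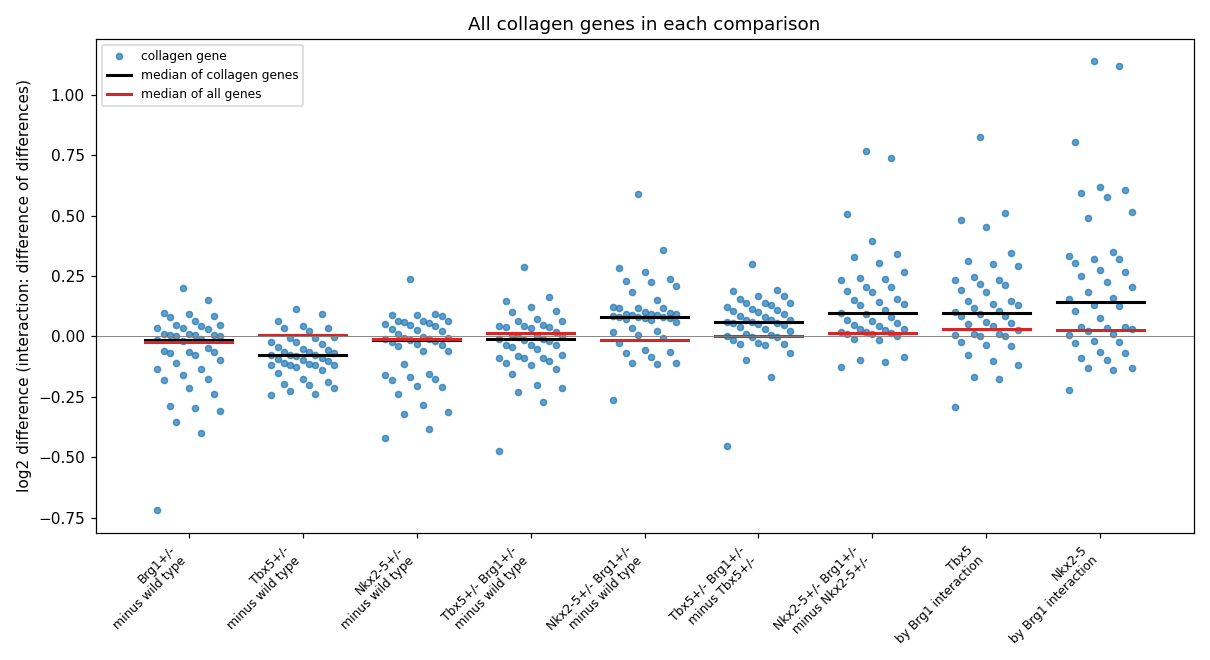
Log2 difference of each of the 44 collagen genes (points) in the 9 comparisons, with the median of the collagen genes in black and the median of all 19935 genes in red. The collagen medians lay between -0.08 and 0.14, and the points farthest from 0 were Col1a2 and Col1a1 in the Nkx2-5 by Brg1 interaction, at 1.14 and 1.12.

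For Nkx2-5+/- Brg1+/- against Nkx2-5+/-, 38 of the 44 collagen genes were above 0 beside 53.4% of all genes. Their median difference there was 0.10, against 0.02 over all genes. With further quantile normalization 33 of 44 were above 0 and with equal array medians 29, and without both arrays that go against their labels 26, with a median of 0.05. For Nkx2-5+/- against wild type, 17 of 44 were above 0 as deposited, 27 after quantile normalization and 28 with equal medians or without both arrays, so no direction holds. For Tbx5+/- against wild type 7 were above 0 (8 and 10 under those scalings) beside 52% of all genes, with a median of -0.08. For Nkx2-5+/- Brg1+/- against wild type 34 were above 0 (36 and 35) beside 45.9% of all genes, with a median of 0.08. In the Nkx2-5 by Brg1 interaction 33 were above 0 (30 and 25, and 27 without both arrays) beside 54.5% of all genes, with a median of 0.14. The Tbx5 side also had more collagen genes above 0. For Tbx5+/- Brg1+/- against Tbx5+/- 33 were above 0 (35 and 32, and 36 without both arrays) beside 50.1% of all genes, with a median of 0.06. In the Tbx5 by Brg1 interaction 35 were above 0 (29 and 28, and 35 without both arrays) beside 57.5% of all genes, with a median of 0.10. Comparisons that share wild-type or single-loss arrays are not independent of each other.

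Among the fibrillar collagens, type I collagen is the main fibre of connective tissue and is built from the chains of Col1a1 and Col1a2. Col1a1 (probe set 10380419) was 11.43, 10.71, 9.91 and 11.38 in the Nkx2-5+/- arrays in the order of replicates 1 to 4, and 11.81, 11.70 and 11.37 in the Nkx2-5+/- Brg1+/- arrays. In wild type it ran from 10.37 through a median of 11.07 to 11.84, and in Brg1+/- from 9.97 through 10.72 to 11.40. The Tbx5+/- arrays were at 10.48, 10.65, 11.35, 10.93 and 11.19, and the Tbx5+/- Brg1+/- arrays at 11.27, 11.49 and 10.29. The lowest Col1a1 signals of the Nkx2-5+/- and Tbx5+/- Brg1+/- groups were in the arrays whose Smarca4 went against the label, and the Nkx2-5+/- Brg1+/- arrays overlapped every group but Tbx5+/-, which lay below them.

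Col1a2 (probe set 10536220) followed Col1a1 closely. It was 11.09, 10.25, 9.64 and 11.10 in Nkx2-5+/- and 11.37, 11.30 and 11.11 in Nkx2-5+/- Brg1+/- arrays. Wild type ran from 10.56 through 10.85 to 11.44 and Brg1+/- from 10.03 through 10.54 to 11.01. The Tbx5+/- arrays were at 10.38, 10.46, 10.95, 10.73 and 10.82, and the Tbx5+/- Brg1+/- arrays at 11.03, 11.07 and 10.14. The Nkx2-5+/- Brg1+/- arrays lay above every Nkx2-5+/- array, by less than 0.01 log2 units at the nearest ends, and above every Brg1+/- array, but overlapped the wild-type range.

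Col3a1 (probe set 10346015), the chain of the type III collagen of extensible tissue, was 10.51, 9.69, 10.22 and 10.39 in Nkx2-5+/- and 10.82, 10.62 and 10.69 in Nkx2-5+/- Brg1+/- arrays. Wild type ran from 10.40 through 10.57 to 11.05 and Brg1+/- from 10.01 through 10.27 to 10.92. The Tbx5+/- arrays were at 10.22, 10.45, 10.55, 10.63 and 10.62, and the Tbx5+/- Brg1+/- arrays at 10.71, 10.96 and 9.96. The Nkx2-5+/- arrays all lay below the Nkx2-5+/- Brg1+/- arrays, and the wild-type and Brg1+/- groups overlapped both. Col5a2 (probe set 10354309), a type V chain that joins type I fibrils, was 9.15, 8.35, 8.75 and 8.85 in Nkx2-5+/- and 9.21, 9.04 and 9.10 in Nkx2-5+/- Brg1+/- arrays, which overlapped. Col5a1, its partner chain, ran from 7.93 to 8.33 and from 8.25 to 8.34 in these groups.

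In the Nkx2-5 by Brg1 interaction Col1a2 and Col3a1 had the smallest p of the collagen genes. Col1a2 had an interaction of 1.14 ± 0.35 (SE) log2 units with a 95% interval of 0.42 to 1.86 and a limma adjusted p of 0.0553. Col3a1 had 0.80 ± 0.27 (SE) with an adjusted p of 0.0800, and Col1a1 had 1.12 ± 0.43 (SE) with an adjusted p of 0.132. Col4a6 had 0.51 ± 0.19 (SE) and Col8a1 0.49 ± 0.20 (SE), with adjusted p of 0.118 and 0.162. The parts of the Col1a2 interaction were -0.40 for Brg1+/- against wild type and 0.74 for Nkx2-5+/- Brg1+/- against Nkx2-5+/-. For Col1a1 the parts were -0.35 and 0.77, and for Col3a1 -0.30 and 0.51. Without Nkx2-5+/- replicate 3 the second part was 0.45 for Col1a1. In each gene the difference with Brg1 loss was below 0 in hearts wild type for Nkx2-5 and above 0 in Nkx2-5+/- hearts. The call of Col1a2 turned on small changes: it passed with genes of low mean signal removed, 13290 being kept (adjusted p = 0.0402) and without Brg1+/- replicate 5, Nkx2-5+/- replicate 1, Nkx2-5+/- replicate 4 or wild type replicate 2, each left out alone. The interaction of Col1a2 was then 1.24, 1.33, 1.33 and 1.21 in that order. Without Brg1+/- replicate 5, Col3a1 and Col5a2 passed too. The fibrillar class as a whole had 9 of 11 genes above 0, with a median of 0.32 (8 of 11 and 0.26 without both arrays), and the other classes had medians of -0.09 to 0.22.

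Groups that did not overlap were found for 4 collagen values in 2 comparisons. For Nkx2-5+/- Brg1+/- against Nkx2-5+/-, Col1a2, Col3a1 and Col16a1 were higher in all arrays, which is 6.82% of the collagen genes beside 4.13% of all genes. Col16a1, a fibril-associated collagen, was 7.58, 7.42, 7.23 and 7.57 in Nkx2-5+/- and 7.72, 7.84 and 7.60 in Nkx2-5+/- Brg1+/- arrays, a difference of 0.27 ± 0.11 (SE, adjusted p = 0.234). The differences of Col1a2 and Col3a1 were 0.74 ± 0.28 and 0.51 ± 0.22 (SE), with adjusted p of 0.172 and 0.239. For Tbx5+/- Brg1+/- against Tbx5+/-, Col8a1 was lower in all arrays, which is 2.27% of the collagen genes beside 1.84% of all genes. Without the array labelled Nkx2-5+/- replicate 3 and its counterpart in the Tbx5+/- Brg1+/- group, Col1a2 was at 0.44 (adjusted p = 0.252), Col3a1 at 0.51 (0.119) and Col16a1 at 0.20 (0.327). In the opposite directions of these comparisons no collagen gene was separate, beside 3.57% of all genes for lower values in the first and 1.81% for higher values in the second. No collagen gene was separate from wild type in any group. The share of all genes above and below wild type was 0.166% and 0.441% for Brg1+/-, 0.306% and 0.276% for Tbx5+/-, 1.05% and 1.43% for Nkx2-5+/-, 1.39% and 0.953% for Tbx5+/- Brg1+/-, and 1.42% and 2.56% for Nkx2-5+/- Brg1+/-. The collagen shares were thus close to the background.

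**Figure D2:**
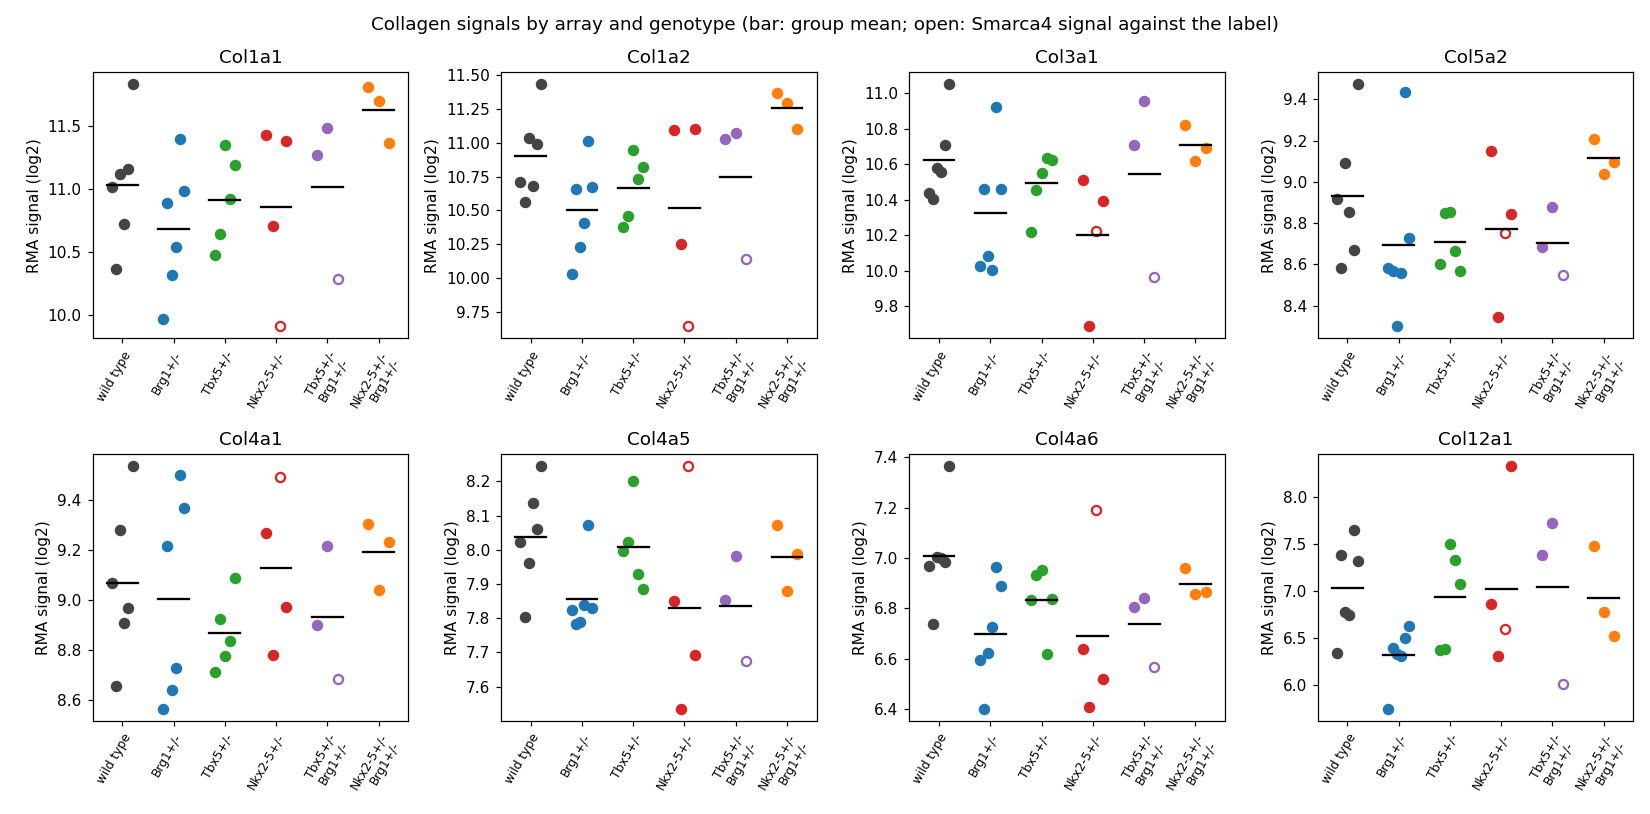
RMA log2 signal of 8 collagen genes in every array by genotype group, with the group mean as a bar and open points for the 2 arrays whose Smarca4 signal goes against the label. Col1a1 and Col1a2 are lowest in the open point of Nkx2-5+/- (9.91 and 9.64), whereas Col4a5 and Col4a6 are highest there (8.24 and 7.19).

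Type IV collagen, whose genes lie in head-to-head pairs, forms the sheet under epithelium, endothelium and muscle. Col4a5 (probe set 10602105) and Col4a6 (probe set 10607012) encode X-linked minor chains. Col4a5 was 7.85, 7.54, 8.24 and 7.69 in Nkx2-5+/- and 8.07, 7.88 and 7.99 in Nkx2-5+/- Brg1+/- arrays, with wild type from 7.80 through 8.04 to 8.24 and Brg1+/- from 7.78 through 7.83 to 8.07. Col4a6 was 6.64, 6.41, 7.19 and 6.52 in Nkx2-5+/- and 6.96, 6.86 and 6.87 in Nkx2-5+/- Brg1+/- arrays. Its wild-type arrays ran from 6.74 through 6.99 to 7.36 and its Brg1+/- arrays from 6.40 through 6.67 to 6.96. Tbx5+/- arrays ran from 7.88 to 8.20 for Col4a5, and Tbx5+/- Brg1+/- arrays were at 7.85, 7.98 and 7.67. For Col4a6 the Tbx5+/- Brg1+/- arrays were at 6.81, 6.84 and 6.57. In both genes the array labelled Nkx2-5+/- replicate 3 was the highest of its group, and its group mates lay below the lowest wild-type array for Col4a6 in all 3 cases and for Col4a5 in 2 of 3. The 17 arrays with Xist above the Y-linked Eif2s3y had Col4a5 at 7.54 to 8.24, and the 10 others had it at 7.69 to 8.07, so the ranges overlapped.

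Without both arrays that go against their labels, Nkx2-5+/- against wild type called 4346 genes (21.8%), and 3 of the 44 collagen genes fell. Col4a6 fell by 0.49 ± 0.12 (SE, adjusted p = 0.00355), Col2a1 by 0.40 ± 0.12 (adjusted p = 0.0216) and Col4a5 by 0.35 ± 0.10 (adjusted p = 0.0124). In all 27 arrays the same differences were -0.32 ± 0.13 (adjusted p = 0.131), -0.28 ± 0.13 (0.173) and -0.21 ± 0.11 (0.273). Over 20 alternatives they ran from -0.49 to -0.09 for Col4a6, from -0.40 to -0.04 for Col2a1 and from -0.35 to -0.02 for Col4a5. With each array left out they came no nearer 0 than -0.23, -0.19 and -0.11, so the ends nearest 0 came from other settings. Deviations of these genes from their group means had correlations of -0.60, -0.68 and -0.62 with those of the erythroid mean, in the same order. The array labelled Nkx2-5+/- replicate 3 had an erythroid mean of 9.01, and its group mates had 10.95 to 11.20, so leaving it out also changed the erythroid level of the group. Col2a1 (probe set 10432045), the type II chain of cartilage and cushion tissue, was 7.63, 7.58, 8.22 and 8.07 in Nkx2-5+/- arrays and from 7.99 to 8.32 in wild type. Replicates 1 and 2 were below wild type, and replicates 3 and 4 within it. The share of collagen genes called (3 of 44) stood below the 21.8% of all genes.

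The interaction without both arrays called 3258 genes (16.3%) and 4 collagen genes, all above 0. Col4a6 had an interaction of 0.68 ± 0.17 (SE, adjusted p = 0.00590), Col4a5 of 0.47 ± 0.14 (0.0212), Col3a1 of 0.81 ± 0.26 (0.0298) and Col1a2 of 0.84 ± 0.29 (0.0422). Without the Nkx2-5+/- array alone, 2 collagen genes were called, Col4a5 and Col4a6, beside 16.2% of all genes. Col1a1 had 0.80 ± 0.38 (adjusted p = 0.166) without both arrays, and its difference for Nkx2-5+/- against wild type turned from -0.18 to 0.14. That difference was also above 0 with all arrays under array weights or the replicate block, so Col1a1 had no stable direction in that comparison.

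**Figure D3:**
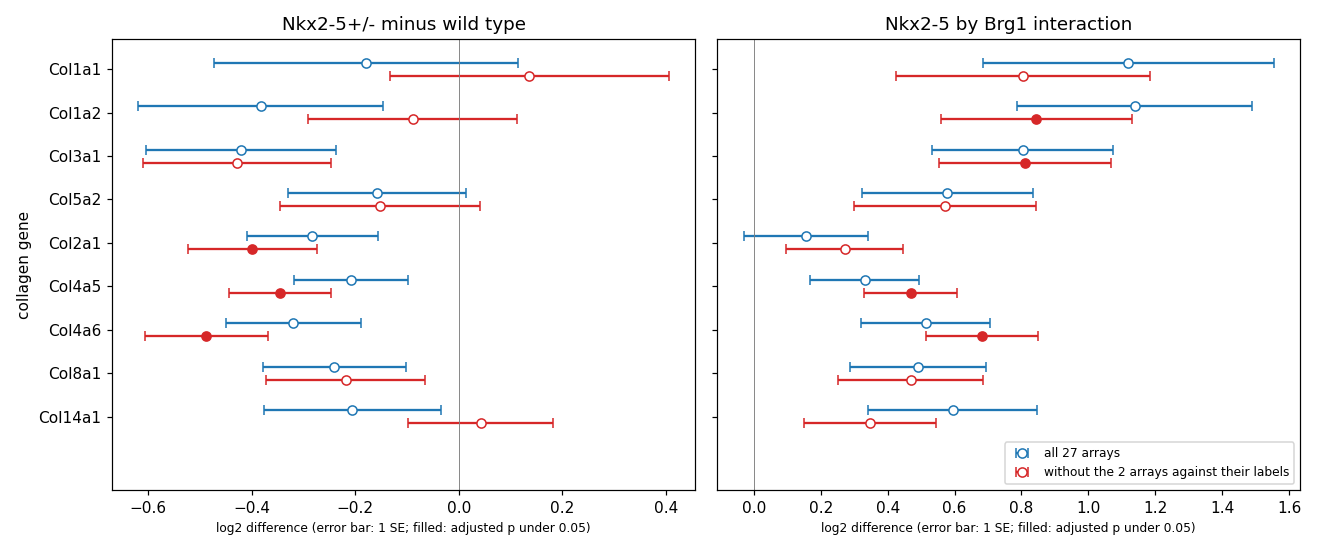
Log2 difference of 9 collagen genes for Nkx2-5+/- against wild type (left) and for the Nkx2-5 by Brg1 interaction (right), with all 27 arrays in blue and without the 2 arrays that go against their labels in red; bars are 1 SE and filled points have an adjusted p under 0.05. Filled points are Col2a1, Col4a5 and Col4a6 on the left and Col1a2, Col3a1, Col4a5 and Col4a6 on the right, all in red.

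Erythroid content moved with these groups. All 14 erythroid genes were above 0 for Nkx2-5+/- against wild type, with a median of 1.42 and 6 called. All were below 0 in the interaction, with a median of -2.63 and 13 called. Of all genes, 7.89% and 4.95% were called in these comparisons, which are also the shares for the other markers with all arrays. With the mean of the erythroid list as a covariate, 0 collagen genes and 0 genes in all were called in the interaction, and 4 genes in all for Nkx2-5+/- against wild type. The interaction of Col1a2 was then 1.02 ± 0.44 (SE), that of Col1a1 0.81 ± 0.54, that of Col3a1 0.32 ± 0.30 and that of Col4a6 0.11 ± 0.21. The array labelled Nkx2-5+/- replicate 3 had an erythroid mean of 9.01, and the others of its group were at 10.95 to 11.20. Cushion mesenchyme markers had a mean of 8.43 in wild type, 8.12 in Nkx2-5+/- and 8.46 in Nkx2-5+/- Brg1+/-, with 1 of 12 (Lum) called in the interaction. Epicardial and fibroblast markers had a mean of 9.24 in wild type, 8.89 in Nkx2-5+/- and 9.41 in Nkx2-5+/- Brg1+/-, and 12 of 12 were above 0 in the interaction, 2 of them called. Endothelial markers were at 9.01, 8.79 and 9.07 in the same groups, also with 12 of 12 above 0 and none called (limma). Cardiomyocyte markers had a mean of 11.65 in Nkx2-5+/- and 12.06 in Nkx2-5+/- Brg1+/-, with 9 of 15 called lower than wild type in Nkx2-5+/-. In the interaction 15 of 15 were above 0 and none was called. Of 8 smooth muscle markers and 11 macrophage and blood markers, 3 each were called lower in Nkx2-5+/-. All were above 0 in the interaction, where 1 and 2 of them were called. Without both arrays, 13 of 15 cardiomyocyte and 6 of 8 smooth muscle markers were called lower in Nkx2-5+/-, beside 21.8% of all genes called. So were 5 of 12 cushion, 5 of 12 epicardial and fibroblast and 1 of 11 macrophage and blood markers, and 14 of 14 erythroid markers were higher. The interaction then called 13 of 15 cardiomyocyte, 7 of 8 smooth muscle, 5 of 12 cushion and 8 of 12 epicardial and fibroblast markers above 0. It called 2 of 11 macrophage and blood markers above 0 and 14 of 14 erythroid markers below 0, beside 16.3% of all genes called. The erythroid mean itself differed between the genotype groups, so the fit with it as a covariate cannot tell erythroid content and genotype apart. The part of these cell types in the collagen values was not tested.

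Loss of 1 copy of Brg1 alone gave the widest collagen difference in Col12a1 (probe set 10595211), a fibril-associated collagen of tendon-like tissue. Wild type ran from 6.34 through 7.04 to 7.65, and Brg1+/- from 5.74 through 6.36 to 6.63, so the groups overlapped. The difference was -0.72 ± 0.30 (SE, adjusted p = 0.449). Col4a6 had -0.31 ± 0.12, Col14a1, another fibril-associated collagen, -0.29 ± 0.15, Col1a2 -0.40 ± 0.21 and Col4a5 -0.18 ± 0.10, with adjusted p of 0.430 to 0.558 over these 4. Nkx2-5+/- arrays of Col12a1 were at 6.86, 6.31, 6.59 and 8.33, and Tbx5+/- Brg1+/- arrays at 7.38, 7.72 and 6.01. Nkx2-5+/- replicate 4 was the highest array of the series for this gene. The mean erythroid level was 10.16 in Brg1+/- and 9.13 in wild type, and with it as a covariate Col12a1 was at -0.54 ± 0.33 (SE).

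In the Tbx5 by Brg1 interaction Col12a1 had the highest value of the collagen genes, 0.82 ± 0.49 (SE), with a 95% interval of -0.17 to 1.82. It was 1.34 ± 0.48 (adjusted p = 0.832) without the arrays that go against their labels, of which Tbx5+/- Brg1+/- replicate 3 had the lowest Col12a1 of its group. Col9a1, a fibril-associated chain of cartilage and eye, had -0.21 ± 0.10 (SE) for Tbx5+/- against wild type, Col9a3 -0.19 ± 0.10, Col18a1 -0.24 and Col24a1 -0.14, with adjusted p of 0.9997 throughout. Col8a1 (probe set 10440091), a short-chain network collagen of vessels, was 5.45, 6.27 and 6.01 in Tbx5+/- Brg1+/- arrays. Tbx5+/- arrays were at 6.32, 6.32, 6.55, 6.28 and 6.33, and wild type ran from 6.21 through 6.35 to 6.58. Its difference was -0.45 ± 0.16 (SE) from Tbx5+/- and -0.47 ± 0.15 from wild type, with adjusted p of 0.9997 and 0.979. Without Tbx5+/- Brg1+/- replicate 1 these differences were -0.22 and -0.24. The beaded filament chains Col6a3, Col6a2 and Col6a1, which form the microfibrils around cells, had 0.30, 0.17 and 0.19 against Tbx5+/-, and 0.51, 0.23 and 0.30 in the Tbx5 by Brg1 interaction, with adjusted p above 0.99. Without both arrays these were 0.47, 0.25 and 0.22 against Tbx5+/-, and 0.68, 0.32 and 0.33 in the interaction, and none passed (limma).

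The remaining collagen genes among the 12 with the highest mean signals overlapped wild type in every group. Col4a1 (probe set 10576973) and Col4a2 (probe set 10570068), the major type IV chains, ran from 8.57 to 9.53 and from 8.29 to 9.44 over all arrays, and every group overlapped wild type. Group means were 9.07 in wild type and 9.19 in Nkx2-5+/- Brg1+/- for Col4a1, and 8.90 and 9.17 for Col4a2. Col18a1 (probe set 10370259), the basement membrane multiplexin that releases endostatin, had group means of 9.20 to 9.54. Col6a1 and Col6a2 had group means of 7.96 to 8.29 and 7.99 to 8.21, and Col26a1 means of 8.35 to 8.59. For 11 of the 12 collagen genes with the highest mean signals, Brg1+/- replicate 5 was the highest of its group. All 12 were highest in Tbx5+/- Brg1+/- replicate 2 and lowest in Tbx5+/- Brg1+/- replicate 3, which is the array with Smarca4 in the wild-type range. In wild type, replicate 6 was highest for 8 of the 12 and replicate 2 lowest for 8.

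The collagen genes outside those 12 were given by class. The transmembrane collagens Col13a1, Col17a1, Col23a1 and Col25a1 differed by -0.12 to 0.18 over the 9 comparisons. Col7a1, the anchoring fibril collagen of epithelium, differed by -0.10 to 0.14, and by -0.22 to 0.21 without both arrays. The short-chain Col10a1, a collagen of growth plate cartilage, had 0.29 ± 0.13 (SE) for Tbx5+/- Brg1+/- and 0.28 for Nkx2-5+/- Brg1+/- against wild type, with adjusted p of 0.979 and 0.664. Cartilage markers ran from 5.96 to 6.36 over all arrays. All 11 fibrillar genes were above 0 in the Tbx5 by Brg1 interaction, with a median of 0.19 (0.30 without both arrays), and 2 of 11 were above 0 for Tbx5+/- against wild type, with a median of -0.12. Of 9 fibril-associated genes, 8 were above 0 for each compound group against its single factor group, and without both arrays 7 for the Tbx5 and 4 for the Nkx2-5 comparison. Of 6 beaded filament genes 5 were above 0 in each of those comparisons, and 4 and 3 without both arrays. These class counts are for the signals as deposited, without the other scalings.

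The median pooled within-group SD was 0.192 log2 units for the 44 and 0.192 for all genes. These SDs include both arrays that go against their labels and were not computed without them. Col12a1 had an SD of 0.59, which is above that of 99.3% of genes, Col1a1 0.51 (98.8%) and Col1a2 0.41 (97.6%). Col6a3, Col3a1, Col4a2, Col4a1 and Col5a2 followed, with 0.31 to 0.29 (93.2% to 90.2%). Col6a2 had 0.13 (9.44%), so that the chains of type VI collagen differed from each other in spread.

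Chains of one collagen type, or whose genes lie side by side, ranged from a correlation of -0.48 to 0.97 across arrays. Correlations were taken over deviations from the group means on 27 arrays, where the genes of a pair share the RNA sample and the array, in a family of 41 pairs, with permutation within groups. Both arrays that go against their labels were kept, and correlations without them were not computed. The 2 arrays left out as a check were those farthest from the median of the first gene of each pair. Col1a1 and Col1a2 had Pearson r = 0.97 and Spearman rho = 0.98 (permutation p = 1e-05 for each, the smallest that 100000 permutations allow, adjusted p = 1.37e-04 and 1.02e-04), and r = 0.96 without the 2 arrays farthest from the median. Col4a1 and Col4a2, whose promoter windows lie on opposite strands and overlap, had r = 0.96 and rho = 0.96 (permutation p = 1e-05, adjusted p = 1.37e-04 and 1.02e-04), and r = 0.95 without 2 arrays. Col4a5 and Col4a6, on opposite strands with windows apart, had r = 0.87 and rho = 0.77 (permutation p = 1e-05, adjusted p = 1.37e-04 and 1.02e-04), with 0.79 without 2 arrays. Col6a1 and Col6a2 had r = 0.83 and rho = 0.85 (permutation p = 2e-05 and 1e-05, adjusted p = 2.05e-04 and 1.02e-04), with 0.81 without 2 arrays. The neighbours Col3a1 and Col5a2 had r = 0.77 and rho = 0.68 (permutation p = 9e-05 and 8.7e-04, adjusted p = 7.38e-04 and 0.0051), with 0.73 without 2 arrays. Of the 41 pairs 13 had r below 0, among them the type IV chain Col4a4 with each of its 4 partners outside the Col4a3 pair. The mean signals of Col4a4 and Col4a3 were 6.13 and 5.99, below the array medians of 6.18 to 6.33. Col4a4 also had r = 0.84 with Col5a3 and 0.75 with Col8a2, which are chains of other types. Whether low signal has a part in the values of Col4a4 and Col4a3 was not tested. Col4a1 and Col4a4 had r = -0.47 and rho = -0.47 (permutation p = 0.0103 and 0.0145, adjusted p = 0.0303 and 0.0373), with -0.54 without 2 arrays. Col4a2 and Col4a4 had r = -0.42 and rho = -0.52 (permutation p = 0.0148 and 0.00553, adjusted p = 0.0378 and 0.0185), with -0.50 without 2 arrays. Col4a4 with Col4a5 had r = -0.48, Col4a4 with Col4a6 -0.44 and Col4a3 with Col4a5 -0.42, each with a permutation adjusted p of 0.108. The median r of 39 same-type pairs was 0.26, that of 8 neighbouring pairs 0.70 and that of 905 other collagen pairs 0.33. The 8 neighbouring pairs included Col6a4 with Col6a5 at 0.51 and Col9a1 with Col19a1 at -0.17.

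**Figure D4:**
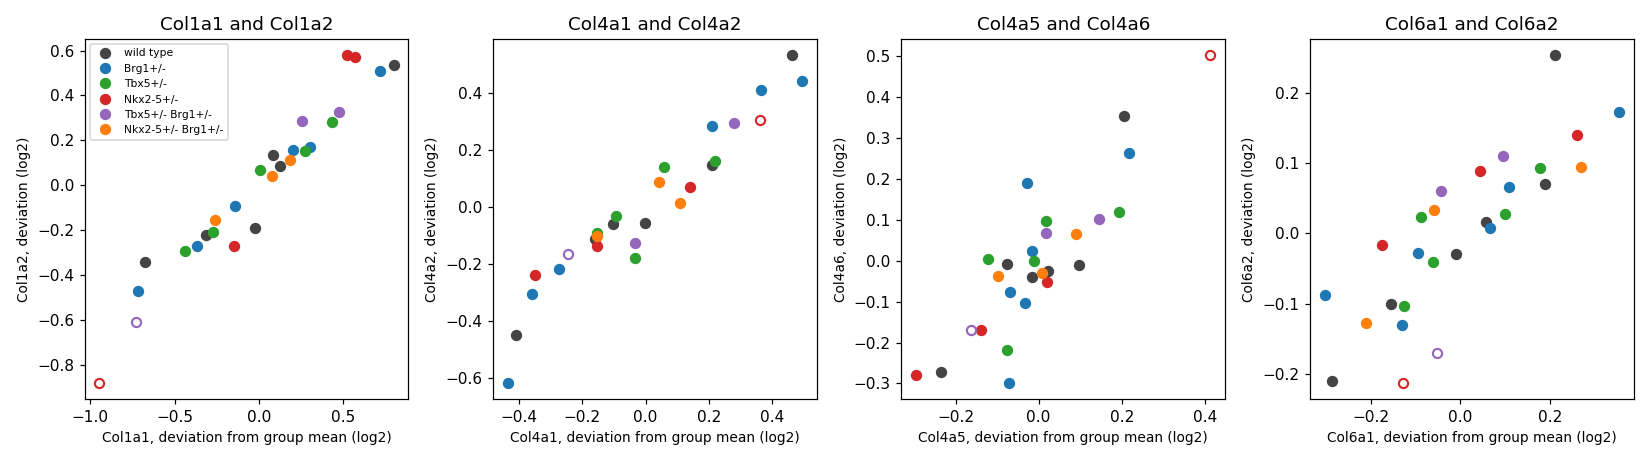
Deviation from the group mean (log2) of 1 chain against another in 27 arrays, coloured by genotype, for Col1a1 with Col1a2, Col4a1 with Col4a2, Col4a5 with Col4a6 and Col6a1 with Col6a2; open points are the 2 arrays against their labels. The points lie along a rising line in each panel, with r of 0.97, 0.96, 0.87 and 0.83.

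The mean of Col1a1, Col1a2, Col3a1 and Col5a2 was most like that of 5 genes outside the family. These were Mrc2, an endocytic collagen receptor (r = 0.91), Hmcn1, a matrix protein of the hemicentin family (0.89), Flrt2 (0.88), Fat4 (0.88) and Itga8, an integrin subunit (0.87), over 27 arrays. Among collagens the values with the same mean were 0.86 for Col5a1, 0.84 for Col6a3, 0.79 for Col11a1 and 0.75 for Col6a1. They were 0.34 for Col4a5, 0.01 for Col4a4 and -0.21 for Col6a4.

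**Figure D5:**
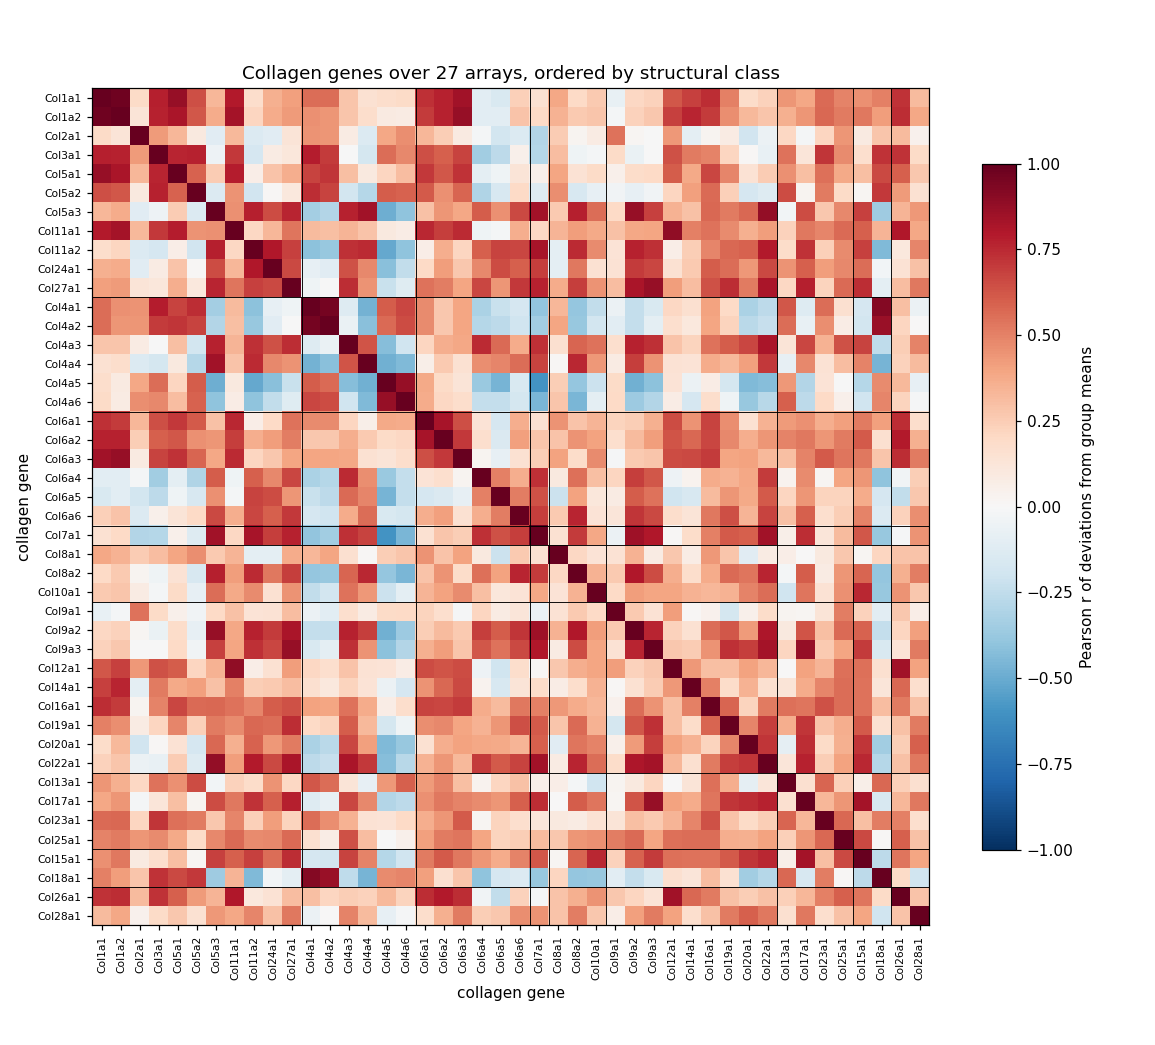
Pearson r between the deviations from group means of all 44 collagen genes over 27 arrays, ordered by structural class, from -1 (blue) to 1 (red). Col1a1 with Col1a2 has the highest value at 0.97, and Col4a5 with Col7a1 the lowest at -0.60.

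Lists of collagen enzymes and partners were read in the same comparisons, beside the 7.89% of all genes called for Nkx2-5+/- against wild type. Of 18 measured genes for procollagen folding and modification, 2 fell in Nkx2-5+/- against wild type. These were Crtap, a prolyl hydroxylation cofactor, by 0.71 ± 0.15 (SE, adjusted p = 0.00734) and P4ha3, a prolyl hydroxylase chain, by 0.35 ± 0.09 (adjusted p = 0.0258), and 17 of the 18 were below 0. Of 10 collagen-degrading proteases and inhibitors 3 fell, Timp3 by 0.60 ± 0.12 (adjusted p = 0.00543), Timp2 by 0.59 ± 0.12 (0.00734) and Timp1 by 0.52 ± 0.14 (0.0217). Of 13 other basement membrane proteins Sparc fell by 0.42 ± 0.10 (adjusted p = 0.0142). None of 11 cleavage and crosslinking genes and none of 9 receptors passed (limma), and Loxl1, a crosslinking oxidase, was at -0.38 (adjusted p = 0.0680). The list medians were -0.28, -0.23, -0.16, -0.12 and -0.25 for folding, proteases and inhibitors, basement membrane, crosslinking and receptors. Without both arrays 13, 3, 3, 1 and 2 genes of these lists fell, in the same order, beside 21.8% of all genes.

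In the Nkx2-5 by Brg1 interaction 11 of these genes were called above 0 and none below 0 (limma). They were P4ha3 and Crtap (0.59 and 0.78), Loxl1 (0.90 ± 0.19), Mrc2 (0.72 ± 0.19), Timp3, Timp2 and Timp1 (0.79, 0.82 and 0.75), and Lama2, Sparc, Lama5 and Nid2 (0.99, 0.62, 0.64 and 0.81), with adjusted p of 0.0189 to 0.0375 beside 4.95% of all genes called. All 13 basement membrane proteins were above 0, with a median of 0.50. The Timp genes encode inhibitors of matrix proteases, and the laminin and nidogen genes encode basement membrane partners of type IV collagen. Without both arrays 12 folding, 4 protease and inhibitor, 6 basement membrane, 5 crosslinking and 3 receptor genes were called above 0, beside 16.3% of all genes. In the other 7 comparisons no gene of these 5 lists was called with all arrays (limma). Without both arrays 11, 3, 5, 1 and 1 were higher in Nkx2-5+/- Brg1+/- than in Nkx2-5+/-, beside 11.9% of all genes. All 13 basement membrane proteins were above 0 for Nkx2-5+/- Brg1+/- against wild type, with a median of 0.26, and 0 of 13 for Tbx5+/- Brg1+/- against wild type, with a median of -0.23 (2 of 13 and -0.13 without both arrays). With the erythroid covariate no gene of any list was called in the interaction, where 0 genes in all passed.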

How the data were processed

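RNA from hearts was hybridised to Affymetrix arrays. The submitters' processing notes name RMA and Affymetrix Power Tools, with no version, as what the authors used to make the deposited log2 signals. Of 28815 probe sets, 21780 had 1 symbol in the platform annotation, 1605 several and 5430 were not listed. The probe set with the highest mean was kept for each of 19935 genes, 998 of which had several.

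Differences were fitted in R 4.3.3 by limma 3.58.1 on all 27 arrays, with 1 mean per group and eBayes without trend or robust prior (21 residual and 6.71 prior degrees of freedom). Tests were two-sided, with Benjamini-Hochberg adjustment over all genes within a comparison and a threshold of 0.05. The fit was tested on simulated data. The genes named are the 12 collagens with the highest mean signals, the 5 with the smallest p in each comparison, those called or not overlapping, up to 4 called genes of each pathway list (otherwise the 2 with the smallest p), and the 5 other genes most like the mean of 4 fibrillar chains. Members and lists were chosen with earlier results of these data known. Correlations used 100000 permutations within groups, in R. Motifs were searched with Python 3.11.15 and figures drawn with matplotlib 3.10.9.

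Alternatives were quantile normalization, equal array medians, a filter on genes of low mean signal (13290 genes kept), a prior with trend and robust fit, the groups alone, the mean of probe sets, array weights, a replicate block, an erythroid covariate and each array left out. Leaving out both arrays that go against their labels was added after seeing the data. The arrays carry no counts, so their number limits the precision.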

Additional observations from a re-analysis of the deposited data

Results flagged for a closer look

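Groups of 4 to 10 arrays were read for single arrays that stood apart from the rest of their group, by the gap to the nearest array as a share of the range of the group. Of 92 groups checked 4 did, and chance gives about 1 in 20. Col4a5 was 8.073 in Brg1+/- replicate 5, and 7.784 to 7.840 in the other Brg1+/- arrays. Col5a2 was 9.437 in the same array, and 8.300 to 8.726 in the others. Col8a1 was 6.545 in Tbx5+/- replicate 3, and 6.283 to 6.330 in the other Tbx5+/- arrays. Col12a1 was 5.743 in Brg1+/- replicate 1, and 6.304 to 6.626 in the other Brg1+/- arrays.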

How the results depend on the processing

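The count of collagen genes called kept to its value of 0 under 181 alternatives over the 9 comparisons and moved under 14. For Nkx2-5+/- against wild type it was 2 with array weights and 0 to 3 with each array left out. It was 3 without both arrays that go against their labels, beside 21.8% of all genes. For Nkx2-5+/- Brg1+/- array weights gave 2 against wild type and 3 against Nkx2-5+/-, beside 1156 and 3680 of all 19935 genes. For the Nkx2-5 by Brg1 interaction the collagen count was 1 with genes of low mean signal removed and 0 to 3 with each array left out. It was 1 with the replicate block (Col1a2 at 1.20, limma adjusted p = 0.0330), beside 1368 genes in all. It was 5 with array weights, beside 4235 genes in all, and 4 without both arrays, beside 16.3% of all genes. Col1a1 for Nkx2-5+/- against wild type, at -0.18, turned to 0.086 with array weights, 0.042 with the replicate block and 0.136 without both arrays, and ran from -0.37 to 0.14 with each array left out. Its other reversal was without Nkx2-5+/- replicate 3. The cause was not tested. Of the single-gene values, 24 passed the threshold under an alternative only. None could lose a call, because no collagen gene was called in the main fit.

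Replicate numbers were read as a possible pairing of the arrays. The mean correlation of arrays with the same number was -0.045 to 0.267, where the highest value rests on 1 pair. Of 27 arrays 8 correlated best with their own number. The number to be met without pairing was not computed, so these values do not decide whether the arrays are paired. With the replicate block, 1120 genes were called for Nkx2-5+/- against wild type (1572 without), 1368 for the interaction (987), 412 for Nkx2-5+/- Brg1+/- against Nkx2-5+/- (8), 3 for Nkx2-5+/- Brg1+/- against wild type (7) and 1 for Brg1+/- (2). Over all alternatives, the counts of all genes ran from 4 to 4368 for Nkx2-5+/- and from 0 to 4235 for the interaction. They ran from 0 to 3680 for Nkx2-5+/- Brg1+/- against Nkx2-5+/- and from 0 to 1156 against wild type.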
